A study of Mus musculus with 4 samples.

Results

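The BCL2 family of cell survival proteins was examined in CD11b+ cells of mouse spleen through 10 genes: Bcl2, Bcl2l1, Bcl2l11, Mcl1, Bax, Bak1, Bid, Bad, Bbc3 and Pmaip1. All probe sets whose only platform gene symbol was one of these were taken, which gave 29 of 45037 probe sets for 9 of the 10 genes, among 18193 named genes in all. The level of Bax was not analysed here. The study compared mice exposed repeatedly to social threat with control mice, labelled HighThreat and LowThreat, with 2 pools in each group and the RNA of 5 mice in each pool. The labels give no strain, sex, age or number of days of exposure, and a pool hides the spread between its mice. Each pool was read on 1 array, and the values are log2 expression per probe set after RMA, a method that corrects background and brings the arrays to a common distribution. Itgam, which encodes the CD11b antigen used for isolation, stood at 10.47 and 11.01 in control pools 1 and 2 and at 11.64 and 11.59 in threat pools 1 and 2.

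BCL2 family proteins meet at the outer mitochondrial membrane and set whether a cell keeps it intact. The guardians BCL2, BCL-XL (from Bcl2l1) and MCL1 hold back the pore formers BAX and BAK, and the BH3-only proteins BIM (from Bcl2l11), BID, BAD, PUMA (from Bbc3) and NOXA (from Pmaip1) bind the guardians or activate the pore formers. In blood cells, neutrophils are known to depend on MCL1, mature lymphocytes on BCL2, and maturing red cell precursors on BCL-XL.

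Promoter sequence is shown for the 3 guardian genes, since their messages moved in different directions. Each line gives the 250 bases upstream of an annotated start, from RefSeq on GRCm38.p6, 5′ to 3′ on the gene's strand, with motif matches in capitals. The windows lie at chr1:106714291-106714540 on the minus strand for Bcl2, at chr2:152828490-152828739 on the minus strand for Bcl2l1 (1 of its 3 annotated starts) and at chr3:95658471-95658720 on the plus strand for Mcl1.
Bcl2: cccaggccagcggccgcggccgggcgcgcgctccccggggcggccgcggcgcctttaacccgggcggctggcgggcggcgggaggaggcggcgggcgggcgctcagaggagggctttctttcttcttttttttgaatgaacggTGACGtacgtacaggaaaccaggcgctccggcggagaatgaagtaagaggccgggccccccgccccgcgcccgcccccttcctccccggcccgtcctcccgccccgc
Bcl2l1: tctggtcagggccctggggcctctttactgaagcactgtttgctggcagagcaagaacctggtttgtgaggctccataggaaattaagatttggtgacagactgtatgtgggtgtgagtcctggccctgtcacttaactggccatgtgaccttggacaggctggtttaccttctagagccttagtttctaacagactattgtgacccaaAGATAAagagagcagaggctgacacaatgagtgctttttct
Mcl1: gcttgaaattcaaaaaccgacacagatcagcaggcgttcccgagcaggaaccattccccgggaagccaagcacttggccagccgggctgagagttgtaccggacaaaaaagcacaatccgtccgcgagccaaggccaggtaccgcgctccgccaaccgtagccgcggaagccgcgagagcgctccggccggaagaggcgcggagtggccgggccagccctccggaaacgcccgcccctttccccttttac
The motifs searched, on both strands, were the half-site TGACG of cAMP response elements, the STAT site TTCNNNGAA and the GATA site AGATAA, and no match overlapped another in these windows. The Bcl2 window held 1 TGACG, the printed Bcl2l1 window 1 AGATAA, and the Mcl1 window none of the 3. The start printed for Bcl2l1 was the only one of its 3 with a match, and the windows at its other starts held none of these motifs. Of all 32851 promoter windows of this length, 17.8% held TGACG, 7.02% the STAT site and 9.99% AGATAA. The 15 member windows searched were those of Bax and of the measured genes other than Pmaip1, and 2 held TGACG, 0 the STAT site and 1 AGATAA. A match is a stretch of letters, not a measured binding site.

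The comparison asked how the messages of this family differed in CD11b+ spleen cells between the groups. Called lower after social threat were 3 of 5 probe sets of Bcl2, 5 of 6 of Mcl1 and the 1 of Pmaip1. Called higher were 3 of 4 probe sets of Bcl2l1 and 1 of 2 of Bad. No probe set of Bak1, Bcl2l11, Bid or Bbc3 was called. Calls were made by limma where p, adjusted over the whole table, was under 0.05, and only such probe sets are said to have risen or fallen. Of the 29 probe sets, 4 rose, 9 fell and 16 were not called. Over all probe sets 15.8% were called (7.09% higher, 8.67% lower), against 44.8% of the member probe sets. The members were mostly well expressed, and among probe sets with a mean above the median of all values (4.42) the shares were 29.1% overall and 12 of 26 for the members. Probe sets of 1 gene read the same message, so these counts are not independent. The median log2 difference (social threat minus control) was -0.06 over the members and -0.01 over all probe sets. The pools of the groups did not overlap for 25 of 29 member probe sets, against 52.7% of all probe sets. That share was not taken among probe sets above the median level, where 26 of the 29 lie, so the comparison is not matched by level. The member calls fell to 5 without threat pool 1, to 7 without threat pool 2 and to 6 without the mean-variance trend of the model.

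**Figure D1:**
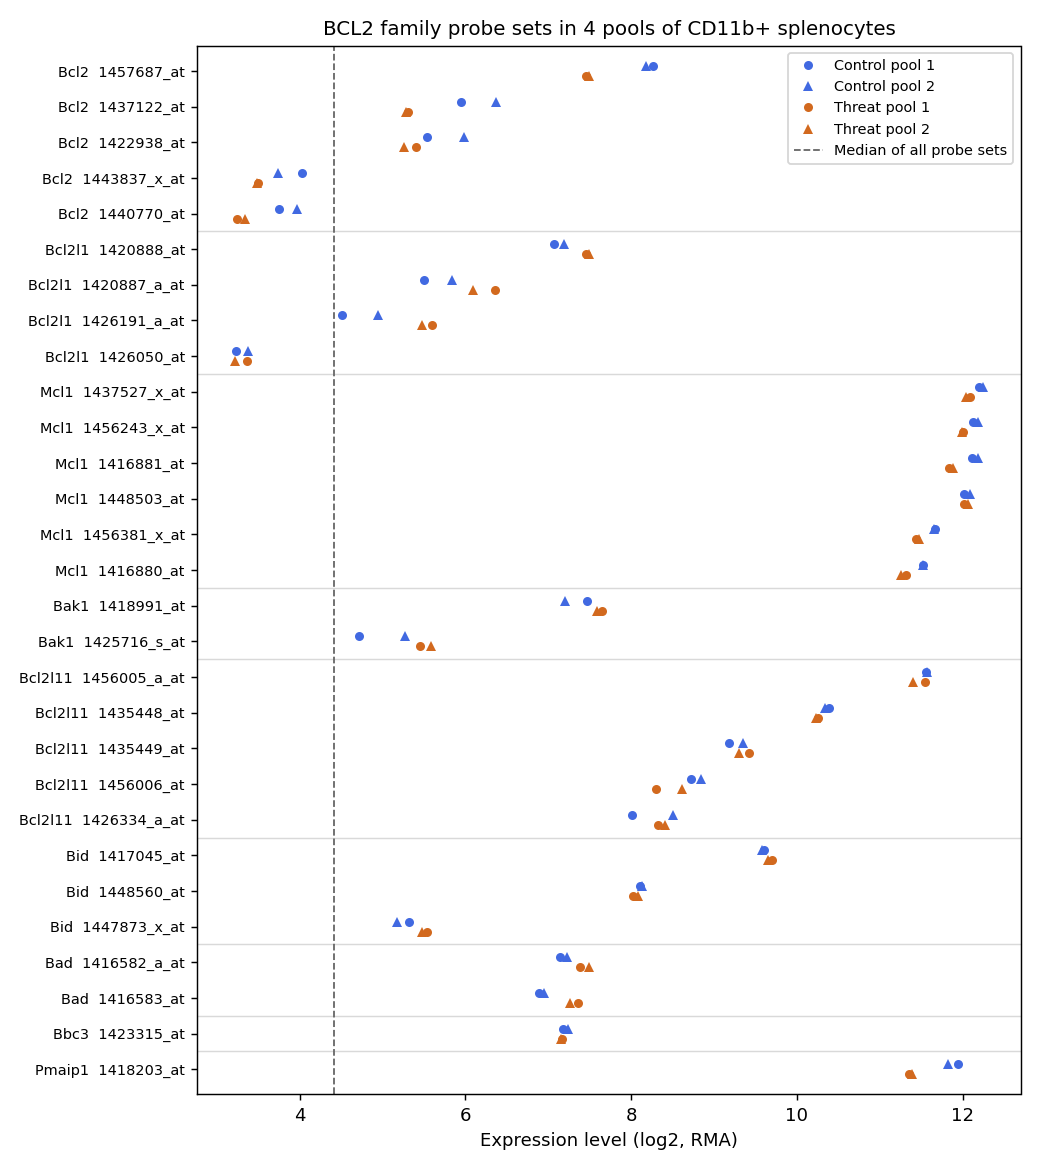
Log2 expression level (horizontal axis) of each of the 29 member probe sets in the 4 pools, with control pools in blue and threat pools in orange, pool 1 as circles and pool 2 as triangles. The dashed line marks the median of all values (4.42), and all 5 Bcl2 probe sets show both threat pools to the left of both control pools.

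Bcl2, which encodes the founding guardian of the family, fell by 3 of its 5 probe sets, and all 5 were lower in both threat pools than in both control pools. The brightest probe set (1457687_at) read 8.27 and 8.19 in control pools 1 and 2 and 7.46 and 7.50 in threat pools 1 and 2. It fell by 0.75 on the log2 scale (SE 0.08, limma adjusted p = 0.000185), a 1.68-fold difference, and the gap between groups was far wider than that between pools of a group. The probe set 1437122_at read 5.94 and 6.38 in the control pools and 5.31 and 5.28 in the threat pools. It showed the largest difference among the called members, 1.82-fold lower (log2 difference -0.87, SE 0.15, adjusted p = 0.00338), and its control pools were further apart than its threat pools. Both kept their call under every alternative tried, with adjusted p of at most 0.00901 and 0.0475. Another probe set (1440770_at) fell by 0.57 (SE 0.12), but it stood at 3.86 ± 0.15 (SD, n = 2) in controls and 3.30 ± 0.07 under threat, below the median of all values, where RMA gives no detection call. Its adjusted p was 0.00915, and it was 0.107 without threat pool 1 and 0.0571 without threat pool 2.

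The remaining Bcl2 probe sets pointed the same way without a call. The probe set 1422938_at read 5.54 and 5.99 in control pools and 5.40 and 5.26 in threat pools (log2 difference -0.43, 95% interval -0.78 to -0.08, limma adjusted p = 0.108). Without control pool 1 its adjusted p was 0.00876. The dim probe set 1443837_x_at differed by -0.39 (adjusted p = 0.0686, and 0.0196 without control pool 2). As the mean of its 5 probe sets, an alternative chosen after seeing the data, the Bcl2 difference was -0.60 (SE 0.09, adjusted p = 0.00125 over genes). Lymphocyte markers moved in the same direction in these pools. Of 10 measured T cell markers, 10 fell (median -0.98), and their summed linear level was 1526 to 1599 in control pools and 782 to 800.0 in threat pools. Of 10 B cell markers, 8 fell and 1 rose (median -1.05), with summed levels of 6121 to 6259.5 against 3991 to 4076. Most markers of conventional dendritic cells, red pulp macrophages and NK cells also fell (medians -1.12, -0.47 and -0.49). Immature neutrophil granule, cell cycle and erythroid markers mostly rose (medians 1.94, 2.12 and 1.13), and mature neutrophil markers went both ways. The part of any of these cells in the lower Bcl2 level was not tested. Fewer cells of a type cannot be told apart from less RNA per cell in pooled cells.

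Bcl2l1, which encodes BCL-XL, moved the opposite way and rose by 3 of its 4 probe sets. The probe set 1426191_a_at read 4.51 and 4.94 in control pools 1 and 2 and 5.59 and 5.48 in threat pools 1 and 2. It rose by 0.81 (SE 0.16, limma adjusted p = 0.00629), a 1.75-fold difference, with no overlap between groups, and its adjusted p was 0.0798 without threat pool 1. The probe set 1420888_at read 7.07 and 7.20 in control pools and 7.45 and 7.50 in threat pools, a rise of 0.34 (SE 0.09, adjusted p = 0.0311). The probe set 1420887_a_at read 5.50 and 5.84 in control pools and 6.36 and 6.09 in threat pools, a rise of 0.55 (SE 0.15, adjusted p = 0.0311).

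The last pair of Bcl2l1 calls were near the threshold. Without threat pool 1, threat pool 2 or control pool 1, adjusted p was 0.211, 0.289 and 0.0600 for 1420888_at and 0.301, 0.0783 and 0.104 for 1420887_a_at, and without the trend it was 0.0624 and 0.0749. The level stayed higher under threat in each case, but it had to. The pools of the groups did not overlap for either probe set, and the trend does not enter the difference. The dim probe set 1426050_at stood at 3.31 ± 0.10 in controls and 3.30 ± 0.11 under threat, and it overlapped (adjusted p = 0.966, 95% interval -0.25 to 0.23). The mean difference over its 4 probe sets, by the same added alternative, was 0.42 (SE 0.10, adjusted p = 0.0202 over genes). Erythroid markers also rose in these pools, 7 of 10 measured (median 1.13). Their summed linear levels were 993 to 1078 in control pools and 2048 to 2133 in threat pools. Immature neutrophil granule markers rose for 13 of 13 (median 1.94) and cell cycle markers for 14 of 15 (median 2.12). Most markers of lymphocytes, NK cells, dendritic cells and macrophages fell. The part of any of these cells in the Bcl2l1 level was not tested.

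Mcl1, the short-lived guardian on which neutrophils depend, fell by 5 of its 6 probe sets, by small amounts. The probe set 1416881_at read 12.12 and 12.19 in control pools and 11.84 and 11.88 in threat pools, a fall of 0.29 (SE 0.03, limma adjusted p = 0.000404) or 1.22-fold. The probe set 1416880_at read 11.52 and 11.53 against 11.32 and 11.26 and fell by 0.23 (SE 0.04, adjusted p = 0.00194). In both, each threat pool lay below each control pool. The probe sets 1456381_x_at, 1437527_x_at and 1456243_x_at fell by 0.20, 0.16 and 0.16. Names ending in _x_at mark probe sets that can bind other transcripts. In the same pools immature neutrophil granule markers rose for 13 of 13 measured genes, and mature neutrophil markers rose for 6 and fell for 4 of 10. The part of these cells in the Mcl1 level was not tested.

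The sixth Mcl1 probe set, 1448503_at, read 12.01 and 12.09 in control pools and 12.01 and 12.06 in threat pools. These overlapped, with a difference of -0.01 and a 95% interval from -0.09 to 0.07 (limma adjusted p = 0.887), an interval that lies above the point estimates of the 5 called probe sets. Why probe sets of 1 gene disagreed was not tested. As the mean of all 6, by the same added alternative, the Mcl1 difference was -0.18 (SE 0.03, adjusted p = 0.00332 over genes). Without the mean-variance trend no Mcl1 probe set was called (adjusted p = 0.0815 for 1416881_at, 0.137 for 1416880_at, 0.176 for 1456381_x_at and 0.290 for both others that had fallen). Adjusted p was 0.0580 for 1416880_at without threat pool 2 and 0.0676 for 1456381_x_at without threat pool 1. For 1437527_x_at it was 0.0511 and 0.132 without threat pools 1 and 2, and for 1456243_x_at 0.0886 and 0.105.

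**Figure D2:**
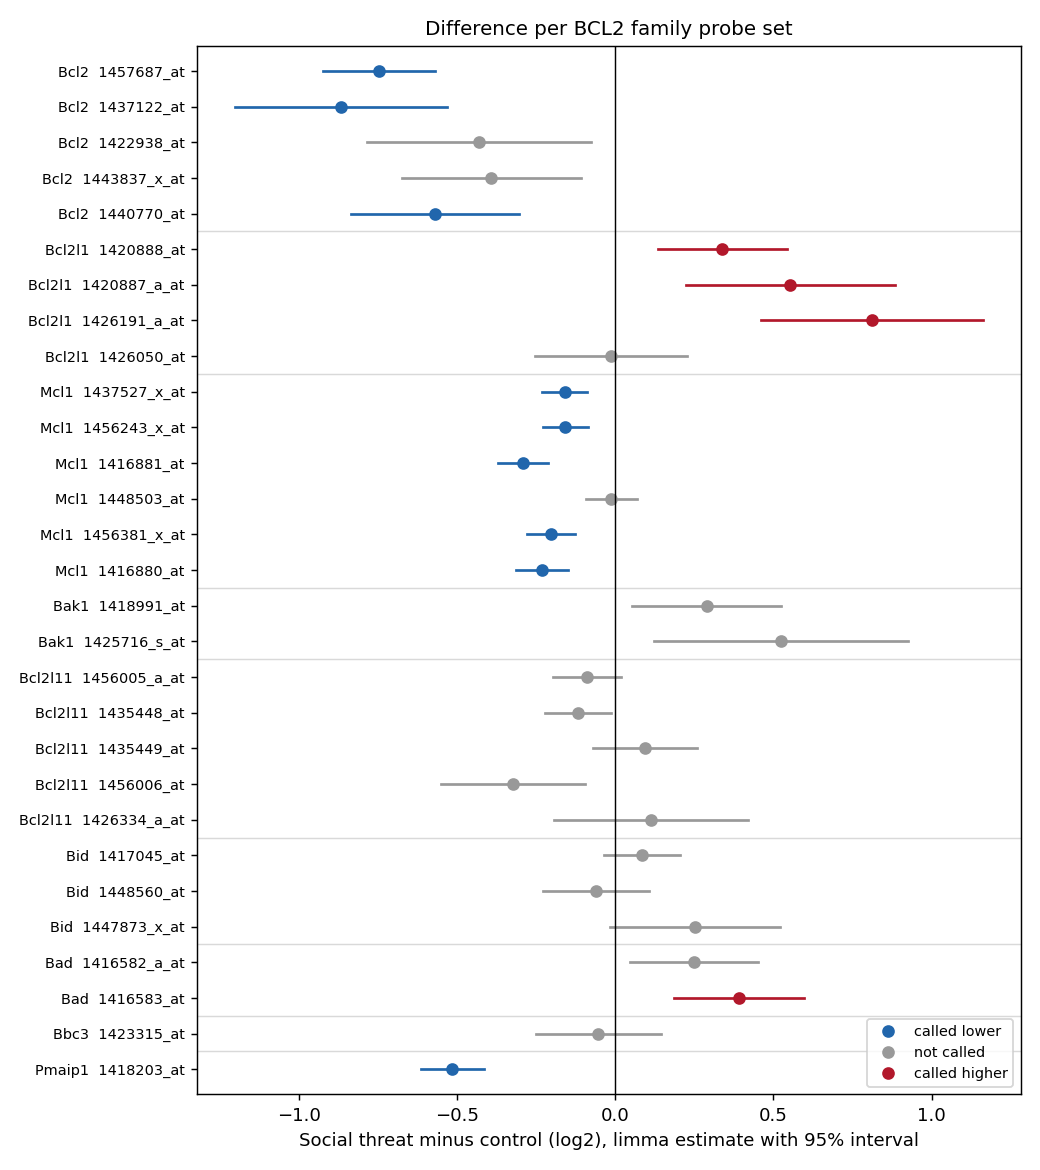
Log2 difference between social threat and control (horizontal axis) for each of the 29 member probe sets, as the limma estimate with its 95% interval, in red where called higher (4), blue where called lower (9) and grey where not called (16). Bcl2 and Mcl1 lie to the left of 0, 3 of 4 Bcl2l1 probe sets lie to the right, and the Mcl1 intervals are the narrowest of these genes.

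The other guardians were read in part. The A1 proteins, made from the Bcl2a1 gene copies and known as NF-kappaB targets in blood cells, were read by 3 probe sets that each carry several of these symbols, so no single copy can be named. The brightest shared probe set (1419004_s_at, assigned to Bcl2a1a, Bcl2a1b and Bcl2a1d) read 11.85 and 11.77 in control pools and 10.89 and 10.88 in threat pools. It fell by 0.93 (SE 0.04, limma adjusted p = 6.67e-07), a 1.90-fold difference, and pools of a group lay within 0.1 of each other. A dimmer shared probe set (1437913_at) fell by 0.53 (SE 0.15, adjusted p = 0.0425), and one at 2.86 ± 0.16 in controls was not called (adjusted p = 0.760). Bcl2l2, which encodes BCL-W, had 4 probe sets and no call, and its brightest stood at 6.18 ± 0.19 in controls and 6.17 ± 0.14 under threat (95% interval of the difference -0.30 to 0.29).

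Of the pore formers, Bak1 had 2 probe sets, both higher in each threat pool than in each control pool, and neither was called. The brighter (1418991_at) read 7.47 and 7.20 in control pools and 7.65 and 7.59 in threat pools (log2 difference 0.29, 95% interval 0.05 to 0.53, limma adjusted p = 0.104). The dimmer (1425716_s_at) read 4.72 and 5.28 against 5.45 and 5.59 (difference 0.52, interval 0.12 to 0.92, adjusted p = 0.0852). Both had an unadjusted p under 0.05, and control pools were further apart than threat pools. The first was called without control pool 1 (adjusted p = 0.00911) and the second without control pool 2 (0.00364). As the mean of its probe sets, the alternative chosen after seeing the data, the Bak1 difference was 0.41 (SE 0.08, adjusted p = 0.00616 over genes).

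Among the BH3-only genes, Pmaip1, which encodes NOXA, an inhibitor of MCL1, showed the clearest difference. Its probe set (1418203_at) read 11.95 and 11.82 in control pools 1 and 2 and 11.35 and 11.39 in threat pools 1 and 2. Both threat pools lay well below both control pools. Pmaip1 fell by 0.51 (SE 0.04, limma adjusted p = 4.78e-05), a 1.43-fold difference, and remained called under every alternative tried, with adjusted p of at most 0.0176.

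Bad, whose protein binds BCL2 and BCL-XL when it is not phosphorylated, rose by 1 of 2 probe sets. The called probe set (1416583_at) read 6.89 and 6.95 in control pools and 7.36 and 7.27 in threat pools, a rise of 0.39 (SE 0.09, limma adjusted p = 0.0166). Its adjusted p was 0.233 without threat pool 1 and 0.129 without threat pool 2. The other (1416582_a_at) read 7.15 and 7.23 against 7.39 and 7.49, higher in both threat pools but not called (difference 0.25, 95% interval 0.05 to 0.45, adjusted p = 0.102). As the mean of both, by the same added alternative, the Bad difference was 0.32 (SE 0.06, adjusted p = 0.00706 over genes).

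Bcl2l11, which encodes BIM, a mediator of myeloid and lymphoid cell death, had 5 probe sets and 0 limma calls, with 2 at an unadjusted p under 0.05, both lower. The brightest (1456005_a_at) read 11.56 and 11.58 in control pools and 11.55 and 11.40 in threat pools, a difference of -0.09 with a 95% interval from -0.20 to 0.02. The probe set 1456006_at read 8.72 and 8.85 against 8.31 and 8.61 and differed by -0.32 (interval -0.55 to -0.09, adjusted p = 0.0637). It passed the threshold without threat pool 2 (0.0412) and among probe sets above the median alone (0.0479). The probe set 1426334_a_at differed by 0.11 with control pools at 8.01 and 8.50, by -0.13 without control pool 1 and by 0.36 without control pool 2, where it was called (adjusted p = 0.00915). The probe sets of Bcl2l11 thus went both ways, and their mean was -0.06 (SE 0.06, adjusted p = 0.508 over genes).

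Bid, which carries the death receptor signal to mitochondria, had 3 probe sets, 0 limma calls and 0 at an unadjusted p under 0.05. Its brightest (1417045_at) read 9.60 and 9.59 in control pools and 9.70 and 9.65 in threat pools, with a 95% interval of the difference from -0.04 to 0.20. The interval ran from -0.23 to 0.11 for 1448560_at and was widest, from -0.02 to 0.52, for the dimmest (1447873_x_at). Bbc3, which encodes PUMA, a target of p53, read 7.18 and 7.24 against 7.16 and 7.15. Its threat pools lay just below its control pools, with a difference of -0.05 and an interval from -0.25 to 0.15 (adjusted p = 0.785).

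Beyond the 10 genes, 11 of 15 further family members were measured, each read here by its brightest probe set. By limma 1 fell and 0 rose, with 3 lower and 1 higher at an unadjusted p under 0.05 and a median of -0.03. Among all genes read this way 21.1% were called (9.4% higher, 11.7% lower). That share applies beside every count of pathway and marker genes given here. Bmf, a BH3-only gene, read 7.16 and 7.21 in control pools and 6.69 and 6.63 in threat pools and fell by 0.53 (SE 0.09, adjusted p = 0.00378). Its other 2 probe sets were not called, and the called one ends in _s_at, a mark of probes that match several transcripts. The count was 0 without either threat pool. Bnip3, a mitophagy receptor with a BH3-like stretch, had 8.88 ± 0.13 in controls and 8.67 ± 0.02 under threat, without a call (limma adjusted p = 0.103).

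Genes that act after the mitochondrial step went both ways. Of 14 measured genes of the apoptosome and caspase list, 2 rose and 3 fell, with a median of -0.03. Apaf1, the scaffold that binds released cytochrome c, rose by both of its probe sets, by 0.39 (SE 0.06, limma adjusted p = 0.00278) from 8.77 and 8.72 to 9.17 and 9.10 for the brighter. Casp6, an executioner caspase, read 8.58 and 8.51 in control pools and 9.03 and 9.08 in threat pools and rose by 0.51 (SE 0.07, adjusted p = 0.000642). The inhibitor of apoptosis genes Birc3 and Birc2 fell by 0.34 and 0.31 (SE 0.04 and 0.06), Birc3 from 11.64 and 11.54 to 11.26 and 11.25. Casp9, the initiator that Apaf1 recruits, was not called by any of 3 probe sets, and the 7 probe sets of Xiap, a caspase inhibitor, were not called either. The number of calls was 2 without threat pool 1, 3 without threat pool 2 and 2 without the trend.

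Of 10 genes of the mitochondrial membrane, 4 rose and 2 fell, with a median of 0.16. Vdac1, a channel of the outer membrane, read 10.21 and 10.27 in control pools and 10.61 and 10.56 in threat pools and rose by 0.35 (SE 0.05, limma adjusted p = 0.000839). Mff, a receptor for mitochondrial fission, rose by 0.34 (SE 0.05). Slc25a4, an ADP/ATP carrier of the inner membrane, read 9.67 and 9.72 against 9.21 and 9.21 and fell by 0.49 (SE 0.06, adjusted p = 0.000291). Ppif, cyclophilin D of the matrix, fell by 0.41 (SE 0.08). The probe sets of Vdac1 (1436992_x_at) and Mff (1456736_x_at) end in _x_at. Without probe sets ending _x_at or _s_at, which leaves both genes out, 4 were called, 2 higher and 2 lower. Without the trend 3 of the 10 were called.

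Of 9 measured genes of the death receptor arm, which reaches mitochondria through BID, 2 fell and 0 rose in limma. That is near the 21.1% called among all genes by their brightest probe set. None was higher at an unadjusted p under 0.05, and the median was 0.095. Fasl, the Fas ligand of cytotoxic lymphocytes, read 6.65 and 6.51 in control pools and 5.53 and 5.61 in threat pools and fell by 1.01 (SE 0.11, adjusted p = 0.000232), a 2.02-fold difference. Tnfrsf1a, a TNF receptor, fell by 0.22 (SE 0.04). Of 10 measured NK cell markers in the same pools, 6 fell, and of 10 T cell markers 10 fell. Their part in the Fasl level was not tested. Fas, Casp8 and Cflar, the receptor, initiator caspase and caspase inhibitor of this arm, were not called, with differences of -0.15, 0.095 and 0.12 for their brightest probe sets. The call count was 1 without threat pool 2 and 1 without the trend.

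Of 19 measured regulators of BCL2 proteins, 4 rose and 6 fell, with a median of -0.03. Ddit3, which encodes CHOP, a stress factor that can induce Bcl2l11 and repress Bcl2, read 9.72 and 9.64 in control pools and 8.98 and 8.97 in threat pools. It fell by 0.705 (SE 0.06, limma adjusted p = 4.19e-05). Stat5a, a cytokine signalling factor, fell by 0.37 (SE 0.09) and Mapk8, the kinase JNK1, by 0.34 (SE 0.08). Dynll2, a dynein light chain that binds BMF, fell by 0.34 (SE 0.08), read by a probe set ending in _s_at (1418258_s_at). The brighter Dynll1 of the same list, named after its value was seen, rose by 0.23 (SE 0.04, adjusted p = 0.00302). Control means were 11.13 for Dynll1 and 8.12 for Dynll2. Mdm2, the ubiquitin ligase of p53, rose by 0.32 (SE 0.09, adjusted p = 0.043) from 8.79 and 9.07 to 9.31 and 9.19. Another Mdm2 probe set (1427718_a_at) was not called, with control pools at 8.05 and 9.24 and threat pools at 9.40 and 9.25, so that control pool 1 stood apart from the other 3. Trp53 was not analysed here. The number of calls was 3 without threat pool 1, 2 without threat pool 2 and 1 without the trend.

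**Figure D3:**
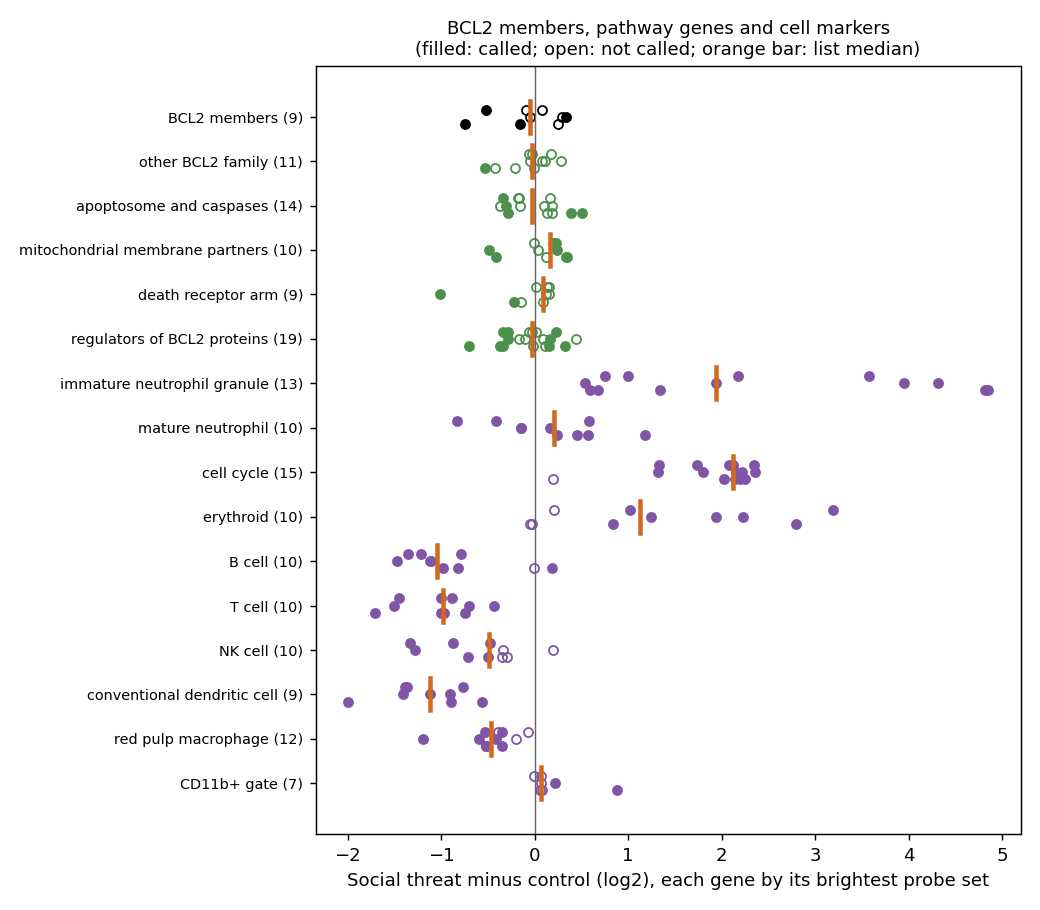
Log2 difference between social threat and control (horizontal axis) per gene, by its brightest probe set, for the 9 BCL2 members (black), the pathway lists (green) and the cell marker lists (purple), with the number of measured genes in brackets. Filled points were called, open points were not, and orange bars are list medians, which lie between -0.05 and 0.16 for members and pathway lists and between -1.12 and 2.12 for marker lists.

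Cell marker lists, included in the plot of list medians, were read in the same pools. Immature neutrophil granule markers rose for 13 of 13 measured genes (median 1.94), by 0.54 to 4.85. Their summed linear levels were 42352.5 to 43096 in control pools and 83559.7 to 83894 in threat pools. Such a sum is weighted to the brightest genes, and the brightest of this list rose least. Cell cycle markers rose for 14 of 15 (median 2.12), from 2343 to 2525 in control pools to 9538 to 9826 in threat pools, and mature neutrophil markers rose for 6 and fell for 4 of 10 (median 0.20), from 66889.8 to 67212 against 73989.9 to 74073. Conventional dendritic cell markers fell for 9 of 9 (median -1.12), from 6367 to 6382 against 2608 to 2734. NK cell markers had a median of -0.49, with 2502 to 2703 against 1556 to 1641, and red pulp macrophage markers fell for 9 of 12 (median -0.47), with 15429 to 15662 against 11322 to 11396. Genes shared by CD11b+ cells rose for 2 of 7 (Itgam and Itgb2), with a median of 0.07. RMA values have no 0. By their mean over the 4 pools, the markers below the median of all values were Tyms (cell cycle) and Xcr1 (dendritic cell). Some others lay below it in 1 group only. The erythroid markers Hemgn and Rhag stood at 3.87 and 3.43 in controls, so their rises start from dim values. The NK cell markers Ncr1 and Klre1 stood at 4.28 and 4.31 under threat. All of these were named after their values were seen. The part of these cells in the member results was not tested.

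By a rule of likeness, the genes closest to Bcl2 were sought for its probe set with the largest difference (1437122_at). The measure was the Euclidean distance between log2 levels centred on their mean over the 4 pools, among called genes. The closest were Gas5 (distance 0.084), S1pr1 (0.0991) and Ptgs2 (0.116), which fell by 0.81, 0.80 and 0.96. With 4 pools, many genes can share such a profile. Gas5 read 7.80 and 8.15 in control pools and 7.19 and 7.13 in threat pools.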

How the data were processed

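CD11b+ splenocyte RNA was read on Affymetrix arrays, 1 per pool. The authors deposited log2 levels, 1 per probe set, from RMA (named without a version in the submitters' processing notes). No source used here states a genome build for the arrays. Values ran from 2.26 to 14.25, with array medians of 4.41 to 4.43, and were not normalized further. The number of arrays limits the precision.

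Gene names came from the platform annotation (34945 probe sets with 1 symbol, 932 with several, 9160 unlisted). The groups were compared by limma 3.58.1 under R 4.3.3 (lmFit, eBayes with trend, two-sided, Benjamini-Hochberg over 45037 probe sets, 2 residual and 7.1 prior degrees of freedom). The code was tested on simulated data, where it recovered most changed probe sets but the share of false calls was above the nominal rate, so calls near the threshold are less firm. Pathway and marker genes were read by their brightest probe set. The members and lists were chosen with earlier results of these data known. Named genes were all members, the called pathway genes with the largest differences (up to 4 a list), genes listed whatever their values, up to 2 genes a marker list by smallest p, and 3 genes most like the top member. The p-values rest on the spread between pools of a group, combined by the model with that of other probe sets of like level. The labels do not tie the pools to separate cultures or days. Alternatives covered the trend, the pool number as a block, each pool left out, a filter on dim probe sets, both scalings, probe sets ending _x_at or _s_at, and gene means. The sources used here give no processing order, so any batch aligned with the groups cannot be told apart from the treatment.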

Additional observations from a re-analysis of the deposited data

How the results depend on the processing

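The count of called member probe sets was 13, and it was 13 with quantile normalization, median centring or the filter on dim probe sets, 10 without probe sets ending _x_at or _s_at, 17 with the pool number as a block and 6 without the mean-variance trend. Leaving out 1 pool at a time gave 5 to 16 calls. Over all probe sets there were 7099 calls, 4689 without the trend, 8168 with the block and 3171 to 8721 with 1 pool left out. Without the trend the calls were 2 for the apoptosome and caspase genes, 3 for the mitochondrial membrane, 1 for the death receptor arm and 1 for the regulators. Without probe sets ending _x_at or _s_at they were 4, 4, 2 and 9. With 1 pool left out these lists had 2 to 6, 4 to 7, 1 to 3 and 2 to 10 calls. The further family members, with 1 call, had 2 with the pool block, with the filter on dim probe sets and by gene means, 0 without probe sets ending _x_at or _s_at, and 0 to 2 with 1 pool left out. Same-numbered pools deviated from their group means with a correlation of 0.05 across probe sets, so the numbers were not taken as pairs. The pool block added calls for both Bak1 probe sets (adjusted p = 0.0476 and 0.0204), for Bcl2 (1443837_x_at, 0.0473) and for Bcl2l11 (1456006_at, 0.0089), and ended none among the members. A pool left alone in its group was assumed to vary like the other group. Signs turned for 3 member probe sets that were not called, and only when 1 pool was left out, with differences of -0.0885 to 0.0645 for Bcl2l1 (1426050_at), -0.133 to 0.36 for Bcl2l11 (1426334_a_at) and -0.05 to 0.026 for Mcl1 (1448503_at). No called member probe set changed its direction under the alternatives run, but this was largely fixed in advance. The pools of the groups did not overlap for any of the 13 called, so leaving out 1 pool could not turn a sign. The fits without the trend, with the pool block or with probe sets filtered keep the same difference. The cause of these dependences was not tested.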
